A study of Mus musculus with 4 samples.

Results

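The Sox genes measured in embryonic mouse neocortex are described here, by cell type and by induction of the reprogramming factors. They are Sox1, Sox2, Sox3, Sox4, Sox5, Sox6, Sox8, Sox9, Sox10 and Sox11, 10 of the 32285 genes listed in the single-cell count matrices, and they were chosen by gene symbol. The rostral neocortex was sampled at E15.5 in 2 i4F-Nes libraries and 2 libraries of littermate controls (CTR). i4F-Nes embryos carried the inducible cassette of the Yamanaka factors (Pou5f1, Sox2, Klf4 and Myc), a rtTA transactivator released by Cre, and Nestin-Cre. CTR embryos carried the cassette and the silent transactivator without the Cre. Both groups received doxycycline, at 0.2 mg/ml in the drinking water of the pregnant females, over 4 days that began at E10.5 and ended at E14.5. Nestin-Cre is active in neural progenitors, and the released transactivator is inherited by the cells they produce. The number of embryos behind a library is not given in the sources used here. Between i4F-Nes and CTR, p-values measure the spread between libraries, which may be technical. Between gates they measure the spread that remains once library differences are taken out.

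Sox proteins bind DNA through an HMG box, a domain that fits into the minor groove and bends the helix, and they act with partner factors such as the POU proteins. In the cortex the SoxB1 genes (Sox1, Sox2, Sox3) keep progenitors dividing, the SoxC genes (Sox4, Sox11) switch on neuronal genes, and the SoxD genes (Sox5, Sox6) set neuronal subtype and timing. The SoxE genes (Sox8, Sox9, Sox10) belong to glia and neural crest: Sox9 marks radial glia and astrocytes, and Sox10 marks oligodendrocyte lineage and neural crest derivatives.

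The members lie on 10 different chromosomes, and all matched GENCODE M21 (GRCm38) by gene ID. Sox1 (ENSMUSG00000096014) is a single-exon gene at chr8:12395295-12400126 on the plus strand, and Sox2 (ENSMUSG00000074637) is a single-exon gene at chr3:34650405-34652461 on the plus strand. Each lies wholly inside the span of a noncoding gene of its own strand, Sox1ot and Sox2ot. Whether exons of the noncoding RNA cover the coding gene was not checked. Any of its reads over the coding gene could not be told apart from that gene's own. Sox3 (ENSMUSG00000045179) lies at chrX:60891366-60893430, Sox4 (ENSMUSG00000076431) at chr13:28948919-28953713 and Sox11 (ENSMUSG00000063632) at chr12:27334264-27342574, all with a single exon on the minus strand. Sox5 (ENSMUSG00000041540, chr6:143828425-144781977, minus strand) and Sox6 (ENSMUSG00000051910, chr7:115470872-116038796, minus strand) span 953553 and 567925 bases and have 14 and 16 annotated transcripts. Antisense genes overlap both, and whether the counting used strand or intronic reads is not given in the sources used here. Sox8 (ENSMUSG00000024176) lies at chr17:25565892-25570686 on the minus strand, overlapped by an antisense gene, Sox9 (ENSMUSG00000000567) at chr11:112782224-112787760 on the plus strand and Sox10 (ENSMUSG00000033006) at chr15:79154908-79165240 on the minus strand.

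Because the genes share the HMG box, the longest identical run was sought in each of the 45 pairs of member transcripts. It measured 23 to 48 bases in the 8 pairs of 1 subgroup and 11 to 30 bases in the other 37 pairs. The longest runs of the SoxC, SoxB1 and SoxE subgroups are shown because a read wholly inside one could not be assigned to 1 gene. Read length, the number of such reads and the place of the runs relative to the HMG box were not checked. All letters are shared and all lie in the coding sequence.
Sox4 and Sox11: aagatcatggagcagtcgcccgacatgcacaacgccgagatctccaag
Sox1 and Sox3: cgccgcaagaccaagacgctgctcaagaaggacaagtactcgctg
Sox9 and Sox10: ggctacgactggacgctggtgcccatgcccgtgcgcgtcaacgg

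The 250 bases before the RefSeq start are shown for Sox2, whose level was high in progenitors, and for Sox4 and Sox11, whose levels were high in neurons. The RefSeq starts differ from the GENCODE gene starts given above. The Sox4 window overlaps its GENCODE gene by a few bases, and the Sox2 and Sox11 windows lie apart from theirs. They come from the RefSeq promoter table (GRCm38.p6), at chr3:34649745-34649994 (plus strand), chr13:28953700-28953949 (minus) and chr12:27342719-27342968 (minus). Capitals mark the E-box CANNTG, the motif of proneural bHLH factors, and the Sox motifs ACAAAG and ACAATG, each searched on both strands. The E-box occurred in 66.2% of the 32851 promoter windows of that length, and a Sox motif in 25.2%.
Sox2: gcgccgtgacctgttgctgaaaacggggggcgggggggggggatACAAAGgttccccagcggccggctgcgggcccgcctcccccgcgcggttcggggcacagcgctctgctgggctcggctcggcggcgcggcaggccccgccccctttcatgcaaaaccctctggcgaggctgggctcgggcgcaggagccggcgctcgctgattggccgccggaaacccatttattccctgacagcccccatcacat
Sox4: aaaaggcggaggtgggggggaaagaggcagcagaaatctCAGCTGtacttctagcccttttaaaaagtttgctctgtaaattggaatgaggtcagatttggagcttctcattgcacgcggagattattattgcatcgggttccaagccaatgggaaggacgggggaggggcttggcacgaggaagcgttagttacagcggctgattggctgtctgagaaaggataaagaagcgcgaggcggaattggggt
Sox11: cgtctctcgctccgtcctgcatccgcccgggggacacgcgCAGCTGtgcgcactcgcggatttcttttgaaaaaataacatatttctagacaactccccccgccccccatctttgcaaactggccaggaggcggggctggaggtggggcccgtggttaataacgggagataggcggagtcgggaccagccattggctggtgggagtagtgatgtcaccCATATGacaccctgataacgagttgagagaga

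The Sox2 window held 1 Sox motif and no E-box. The Sox4 window held 1 E-box and the Sox11 window 2, of which CAGCTG occurs in both.

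After filtering, 7498 and 6407 cells remained in i4F-Nes replicates 1 and 2 and 6046 and 6690 cells in CTR replicates 1 and 2. Median UMIs (counted RNA molecules) per cell were 15162 and 11320 in i4F-Nes and 15132 and 11620 in CTR, so replicate 1 was the deeper library of both groups. Between 8 and 19 cell barcodes were shared by any 2 libraries. CTR replicate 1 stood apart in sex-linked genes, with Ddx3y at 41.2 CPM (UMIs on a counts-per-million scale) against at most 0.871 CPM in the other libraries and Xist at 0.0103 CPM against at least 848 CPM, which touches the X-linked Sox3. It also stood apart in 6 erythroid markers, summed at 1991 CPM in its intermediate progenitor-gated, 948 CPM in its upper-layer and 930 CPM in its deep-layer neuron-gated cells, against 9.45 to 56.9 CPM in those gates of the other libraries, and their part in the comparisons was not tested. Cell types were gated on UMIs of marker genes with no Sox gene among them. Radial glia-gated cells, the apical progenitors, numbered 684 and 370 in i4F-Nes and 530 and 373 in CTR, and detected 12.59 of 14 radial glia markers on average. The intermediate progenitor gate held 1026 and 442 cells in i4F-Nes and 1138 and 767 in CTR, the upper-layer neuron gate 2080 and 1894 against 1689 and 2404, and the deep-layer neuron gate 1458 and 848 against 1033 and 1219. The interneuron gate held 130 and 95 cells in i4F-Nes and 199 and 382 in CTR. A pair of further gates used genes known from earlier results of these data to lead cells of i4F-Nes: the Cytl1 Anxa1 gate with 445 and 392 cells in i4F-Nes and 1 and 0 in CTR, and the Krt8 Ebf gate with 260 and 281 cells in i4F-Nes and none in CTR. Cytl1 Anxa1-gated cells, which were deeper than radial glia-gated cells, detected 8.08 of the 10 genes of their own list and 10.9 of the 14 radial glia markers on average. The radial glia markers summed to 3825 and 5408 CPM in them, against 18020 and 18360 CPM in radial glia-gated cells of the same libraries, and their part in the Sox levels was not tested.

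**Figure D1:**
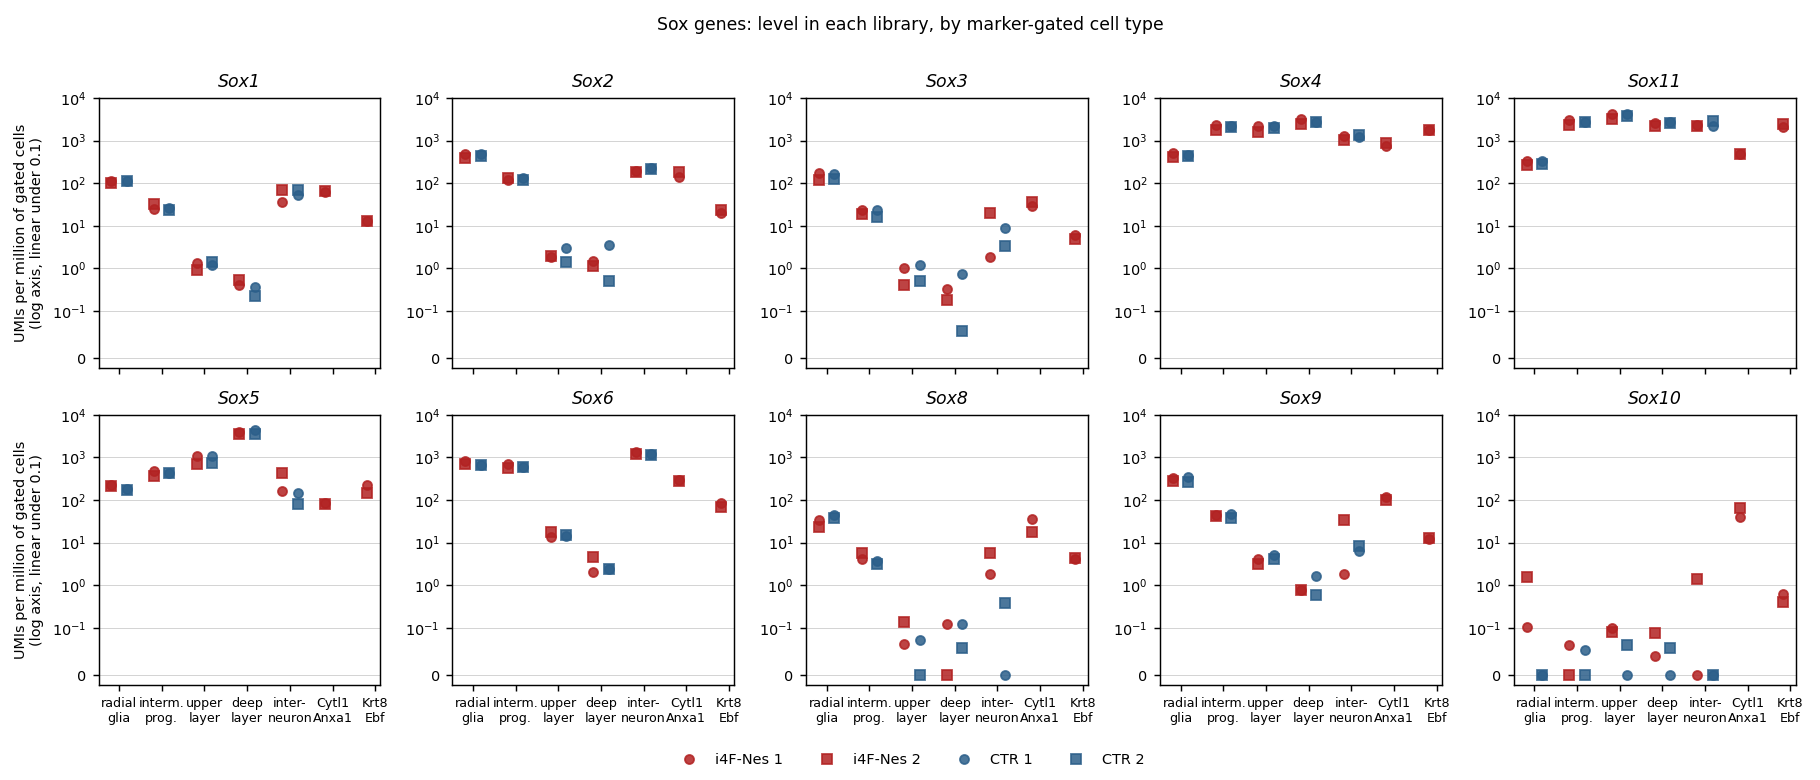
Level of each Sox gene in each library, in CPM of the gated cells' UMIs (log axis, linear under 0.1), for 7 marker gates. Red points are i4F-Nes and blue points CTR, circles replicate 1 and squares replicate 2. Within a gate the libraries of both groups mostly lie together, the gates lie far apart for most genes, and Sox10 is at 40.3 and 64.1 CPM in the Cytl1 Anxa1 gate and at most 1.57 CPM in the other 6.

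Sox1, Sox2 and Sox3, which maintain neural progenitors, were highest in radial glia-gated cells and lower in intermediate progenitors and in neurons. Levels below are CPM of the gate's UMIs, given for replicates 1 and 2, and they are compared within a gene only. Sox2 stood at 481 and 379 in i4F-Nes and 491 and 432 in CTR radial glia-gated cells, and at 121 and 132 in i4F-Nes and 132 and 119 in CTR intermediate progenitor-gated cells. In upper-layer neuron-gated cells it was at 1.82 and 2.0 in i4F-Nes and 3.08 and 1.45 in CTR. No library of a later stage reached any library of the stage before it. Sox1 was at 113 and 99.4 in i4F-Nes and 110 and 115 in CTR radial glia-gated cells, and at 24.6 and 32.7 in i4F-Nes and 26.3 and 24.1 in CTR intermediate progenitor-gated cells. Sox3 was at 175 and 118 in i4F-Nes and 163 and 126 in CTR radial glia-gated cells, and at 22.9 and 18.9 in i4F-Nes and 23.8 and 15.9 in CTR intermediate progenitor-gated cells. Replicate 1 had the higher Sox3 of its group in both gates.

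Between intermediate progenitor-gated and radial glia-gated cells 8 of the 9 members tested passed at an adjusted p under 0.05 in edgeR, where 64.2% of all genes passed. Of these 3 were higher in intermediate progenitors, with 32% of all genes higher, and 5 were lower, with 32.2% lower. The 3 SoxB1 genes were lower, Sox2 by a log2 fold change of -1.75 ± 0.17 (SE, 4 libraries, adjusted p = 4.5e-07), Sox1 by -1.98 ± 0.11 (adjusted p = 3.02e-12) and Sox3 by -2.79 ± 0.16 (adjusted p = 2.24e-10). In upper-layer neuron-gated against radial glia-gated cells all 9 members tested passed, where 79% of all genes did, with 3 higher (40.6% of all genes) and 6 lower (38.3%). Sox2 fell by 7.58 ± 0.23 on the log2 scale, Sox3 by 7.35 ± 0.22 and Sox1 by 6.26 ± 0.15. The median log2 fold change of the members was -5.99, beside 0.05 over all genes tested.

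**Figure D2:**
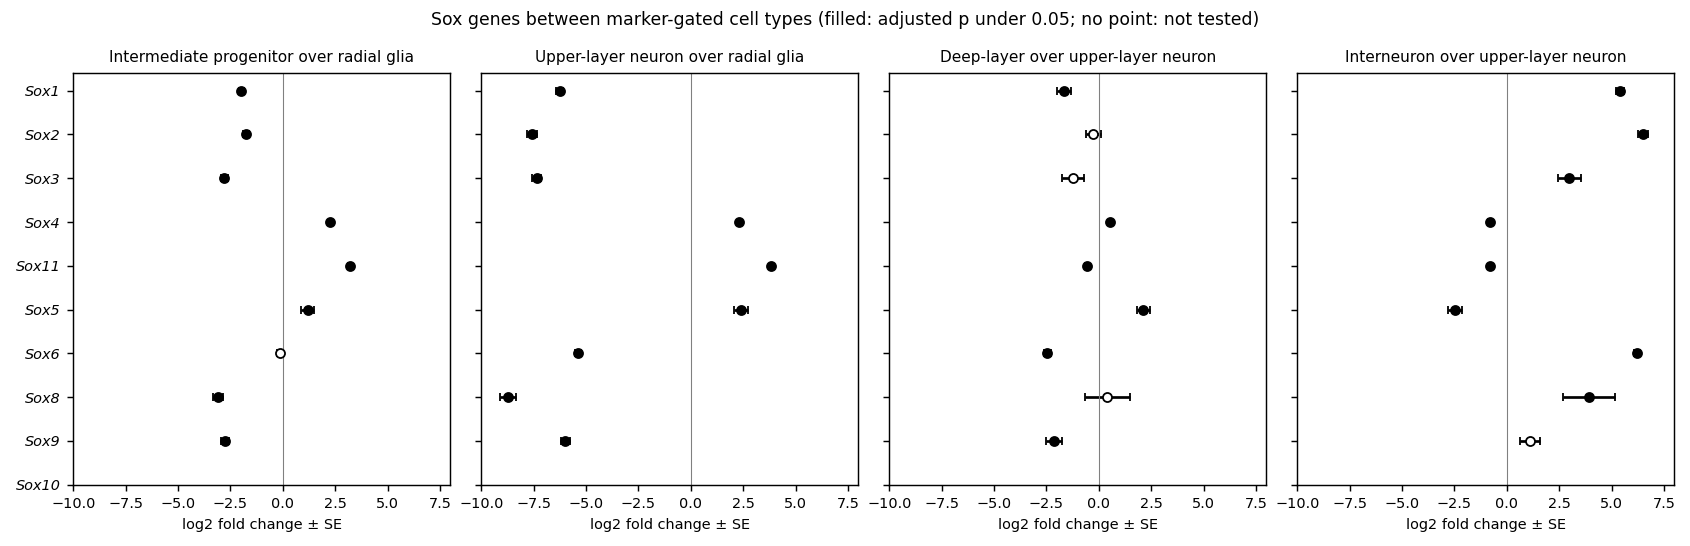
Log2 fold change of each Sox gene between gated cell types with its standard error, from 4 libraries in edgeR with the library as a block. Filled points passed an adjusted p of 0.05, and genes without a point were not tested. SoxB1 and SoxE genes lie left of 0 and SoxC genes right of 0 in the first 2 panels, and Sox5 and Sox6 lie on opposite sides of 0 in the last 3.

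Interneurons, which enter the cortex from the ganglionic eminences, differed from excitatory neurons in their SoxB1 genes. Sox2 stood at 188 and 180 in i4F-Nes and 223 and 214 in CTR interneuron-gated cells, against values from 1.45 to 3.08 in upper-layer neuron-gated cells. Sox1 stood at 36.5 and 69.1 in i4F-Nes and 51.9 and 69.8 in CTR interneuron-gated cells, against 0.91 to 1.45 in upper-layer neuron-gated cells. Sox3 remained at 1.87 and 19.7 in i4F-Nes and 8.97 and 3.41 in CTR interneuron-gated cells. Of the 9 members tested 8 passed between interneuron-gated and upper-layer neuron-gated cells, where 45.8% of all genes did, with 5 higher (21.7% of all genes) and 3 lower (24.1%). The log2 fold change was 6.50 ± 0.24 for Sox2 (adjusted p = 4.15e-11), 5.39 ± 0.19 for Sox1 (adjusted p = 3.13e-15) and 2.98 ± 0.55 for Sox3 (adjusted p = 0.000299). Sox3 did not pass in the i4F-Nes libraries alone (3.47, adjusted p = 0.0636). Its level was ordered over the 4 libraries as the summed radial glia markers of the gate, which were at 281 and 1704 CPM in i4F-Nes and 1065 and 534 CPM in CTR, and their part in it was not tested. Sox2ot, which contains Sox2 on the same strand, moved with it: it stood at 1712 and 1204 in i4F-Nes and 1971 and 2019 in CTR interneuron-gated cells, against 3.50 to 5.16 in upper-layer neuron-gated cells, with a log2 fold change of 8.55 ± 0.36. The part of Sox2ot reads in the Sox2 level was not tested, and in radial glia-gated cells Sox2ot was lower, at 259 to 327, while Sox2 was higher.

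Sox4 and Sox11, the SoxC genes of newborn neurons, showed the reverse order along the excitatory lineage. Sox11 stood at 331 and 271 in i4F-Nes and 323 and 282 in CTR radial glia-gated cells, and at 2958 and 2260 in i4F-Nes and 2745 and 2764 in CTR intermediate progenitor-gated cells. It was highest in upper-layer neuron-gated cells, at 4100 and 3209 in i4F-Nes and 4277 and 3802 in CTR, and in deep-layer neuron-gated cells it was at 2633 and 2148 in i4F-Nes and 2671 and 2579 in CTR. The lowest upper-layer library thus lay above the highest deep-layer library. Sox4 stood at 508 and 406 in i4F-Nes and 451 and 433 in CTR radial glia-gated cells, and at 2274 and 1748 in i4F-Nes and 2222 and 2024 in CTR intermediate progenitor-gated cells. It was highest in deep-layer neuron-gated cells, at 3134 and 2507 in i4F-Nes and 2766 and 2698 in CTR, and at 2149 and 1609 in i4F-Nes and 2242 and 1922 in CTR upper-layer neuron-gated cells. The intermediate progenitor and upper-layer ranges of Sox4 overlapped. In microglia- or macrophage-gated cells Sox4 averaged 493 CPM (207 to 716) and Sox11 435 CPM (122 to 560). Their averages in radial glia-gated cells, 449 and 302 CPM, were lower, and the part of background in them was not tested.

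Both SoxC genes were already higher at the intermediate progenitor stage. Against radial glia-gated cells the log2 fold change was 3.21 ± 0.08 for Sox11 and 2.26 ± 0.07 for Sox4 in intermediate progenitor-gated cells, and 3.85 ± 0.08 for Sox11 and 2.32 ± 0.07 for Sox4 in upper-layer neuron-gated cells. Between deep-layer and upper-layer neuron-gated cells 6 of 9 members tested passed, where 50.9% of all genes did, with 2 higher (25.9% of all genes) and 4 lower (25%). The SoxC genes split in this contrast, with Sox4 higher in deep-layer neurons at a log2 fold change of 0.54 ± 0.06 (adjusted p = 2.19e-07) and Sox11 lower at -0.57 ± 0.07 (adjusted p = 6.7e-07). The 4 that were lower in deep-layer neurons also included Sox6 (-2.45 ± 0.18), Sox9 (-2.14 ± 0.36) and Sox1 (-1.67 ± 0.33), each under 20 CPM in both gates. In the i4F-Nes libraries alone neither Sox9 (-2.24, adjusted p = 0.083) nor Sox1 (-1.29, adjusted p = 0.0748) passed. Sox2 (-0.26 ± 0.35) and Sox8 did not pass, and Sox3 (-1.22 ± 0.52, adjusted p = 0.0628) passed with gates 1 marker stricter (adjusted p = 0.0474) and, leaving out i4F-Nes replicate 2, at an adjusted p of 0.0163. In interneuron-gated against upper-layer neuron-gated cells both SoxC genes were lower, Sox4 by -0.82 ± 0.06 and Sox11 by -0.79 ± 0.07. Of 18 listed Sox partners and targets, 6 were higher (40.6% of all genes) and 8 lower (38.3%) in upper-layer neuron-gated against radial glia-gated cells. The higher ones included Tubb3, the neuronal tubulin, at 5.50 ± 0.22 and Dcx, a microtubule protein of migrating neurons, at 5.46 ± 0.17. Between interneuron-gated and upper-layer neuron-gated cells Dcx was higher (0.37 in the i4F-Nes libraries alone) and Tubb3 lower (-0.70 in the CTR libraries alone). Neither of these 2 values passed.

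Sox5 was highest in deep-layer neurons, where Sox6 was lowest. Sox5, which directs corticofugal neuron identity, stood at 3977 and 3476 in i4F-Nes and 4371 and 3457 in CTR deep-layer neuron-gated cells, against 1103 and 717 in i4F-Nes and 1109 and 724 in CTR upper-layer neuron-gated cells. Replicate 1 was the higher of its group in each of these gates. The log2 fold change of deep-layer over upper-layer neurons was 2.12 ± 0.31 (adjusted p = 8.07e-05). Sox6, which acts in progenitors and in interneurons of the medial ganglionic eminence, stood at 823 and 691 in i4F-Nes and 679 and 653 in CTR radial glia-gated cells, and at 690 and 569 in i4F-Nes and 594 and 610 in CTR intermediate progenitor-gated cells. It was the 1 tested member that did not pass between these gates, at a log2 fold change of -0.14 ± 0.12 (adjusted p = 0.327). In upper-layer neuron-gated cells Sox6 was at 13.2 to 18.2, a log2 fold change of -5.37 ± 0.15 against radial glia-gated cells (adjusted p = 4.91e-15).

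Sox6 was highest in interneuron-gated cells, at 1356 and 1229 in i4F-Nes and 1205 and 1113 in CTR, all above the radial glia libraries. Its log2 fold change over upper-layer neuron-gated cells was 6.21 ± 0.15 (adjusted p = 1.1e-14), while that of Sox5 was -2.46 ± 0.35 (adjusted p = 6.35e-05). In the i4F-Nes libraries alone the Sox5 difference did not pass (-1.81, adjusted p = 0.069). Sox5 in intermediate progenitor-gated cells was at 474 and 375 in i4F-Nes and 422 and 433 in CTR, against 226 and 217 in i4F-Nes and 179 and 168 in CTR radial glia-gated cells, a log2 fold change of 1.20 ± 0.31 (adjusted p = 0.00432). That difference too did not pass in the i4F-Nes libraries alone (1.00, adjusted p = 0.158). In microglia- or macrophage-gated cells Sox5 averaged 265 CPM (69.0 to 432), above its averages of 197 in radial glia-gated and 202 in interneuron-gated cells. The part of background in these low Sox5 levels was not tested.

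Sox9 and Sox8, SoxE genes of the radial and astroglial lineage, followed the SoxB1 order from radial glia through intermediate progenitors to upper-layer neurons. Sox9 stood at 335 and 286 in i4F-Nes and 346 and 261 in CTR radial glia-gated cells, and at 45.6 and 42.1 in i4F-Nes and 48.3 and 38.3 in CTR intermediate progenitor-gated cells. Sox8 stood at 33.7 and 23.7 in i4F-Nes and 45.6 and 37.4 in CTR radial glia-gated cells, and at 4.03 and 5.71 in i4F-Nes and 3.63 and 3.22 in CTR intermediate progenitor-gated cells. Both fell at this step, Sox9 by 2.75 ± 0.18 (adjusted p = 5.83e-09) and Sox8 by 3.09 ± 0.24 (adjusted p = 1.13e-09) on the log2 scale. In upper-layer neuron-gated cells Sox8 had 7 UMIs over all 4 libraries, so its fitted log2 fold change there, -8.73, rests on few counts, and Sox9 was at -5.99 ± 0.21. In interneuron-gated cells Sox9 stood at 1.87 and 33.8 in i4F-Nes and 6.40 and 8.35 in CTR, and did not pass against upper-layer neuron-gated cells (1.11 ± 0.46, adjusted p = 0.0637). It passed there with doublets kept (1.64, adjusted p = 2.7e-05) and, leaving out i4F-Nes replicate 1, at 1.35 with an adjusted p of 0.0496. The summed radial glia markers of this gate were higher in the i4F-Nes library with more Sox9, but in CTR in the library with less (281 and 1704 CPM in i4F-Nes, 1065 and 534 CPM in CTR), and their part in it was not tested. Sox8 in the same contrast passed at 3.92 ± 1.22 (adjusted p = 0.0131) on 7 UMIs in interneuron-gated cells. It did not pass with gates 1 marker stricter (2.10, adjusted p = 0.303), with doublets kept (3.26, adjusted p = 0.0507), in the CTR libraries alone (2.41, adjusted p = 0.332) or without i4F-Nes replicate 1 (3.71, adjusted p = 0.0961).

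Within single cells, detection of pairs of Sox genes was described without a test, since it moves with the cell's depth. Each cell was thinned to 3800 UMIs, so that depth was equal and shallower cells were left out, and cells with at least 1 UMI of a gene were counted. The share of radial glia-gated cells with Sox2 was 79.3% and 63.6% in i4F-Nes libraries and 79.3% and 77.6% in CTR libraries. Without thinning it was 91.2% and 76.5% in i4F-Nes and 91.9% and 87.4% in CTR. Sox2 was detected in 0 to 7.14% of the 10 to 22 microglia- or macrophage-gated cells per library, which should lack it, and in 0.81% of upper-layer neuron-gated cells on average, which is within that background. Among i4F-Nes radial glia-gated cells, Sox9 was detected in 66.9% and 59.8% of those with a Sox2 UMI and 62.7% and 51.4% of those without. Among CTR radial glia-gated cells, the shares were 67% and 62.8% with a Sox2 UMI and 58.8% and 56.9% without. Among i4F-Nes intermediate progenitor-gated cells, Sox9 was detected in 21.6% and 19.3% of those with a Sox2 UMI and 10.6% and 8.56% of those without. Among CTR intermediate progenitor-gated cells, the shares were 23.8% and 16.7% with a Sox2 UMI and 11% and 10.4% without, so Sox9 was more often seen beside Sox2 in all 4 libraries. The same cells nearly all held Sox11, which was detected in 98% of intermediate progenitor-gated cells on average and in those with a Sox2 UMI in 94.5% and 96.4% for i4F-Nes and 95.7% and 97% for CTR. Sox5 and Sox6 overlapped in intermediate progenitors, where Sox6 was detected in 80.4% and 79% (i4F-Nes) and 75.9% and 81.9% (CTR) of the cells with a Sox5 UMI. The shares were alike in cells without a Sox5 UMI, at 81.8% and 76.7% in i4F-Nes and 76.4% and 79.8% in CTR. In upper-layer neuron-gated cells with a Sox5 UMI the share was 3.66% and 5.6% in i4F-Nes and 4.53% and 5.33% in CTR. Sox6 was detected in 4.65% of all upper-layer neuron-gated cells on average.

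**Figure D3:**
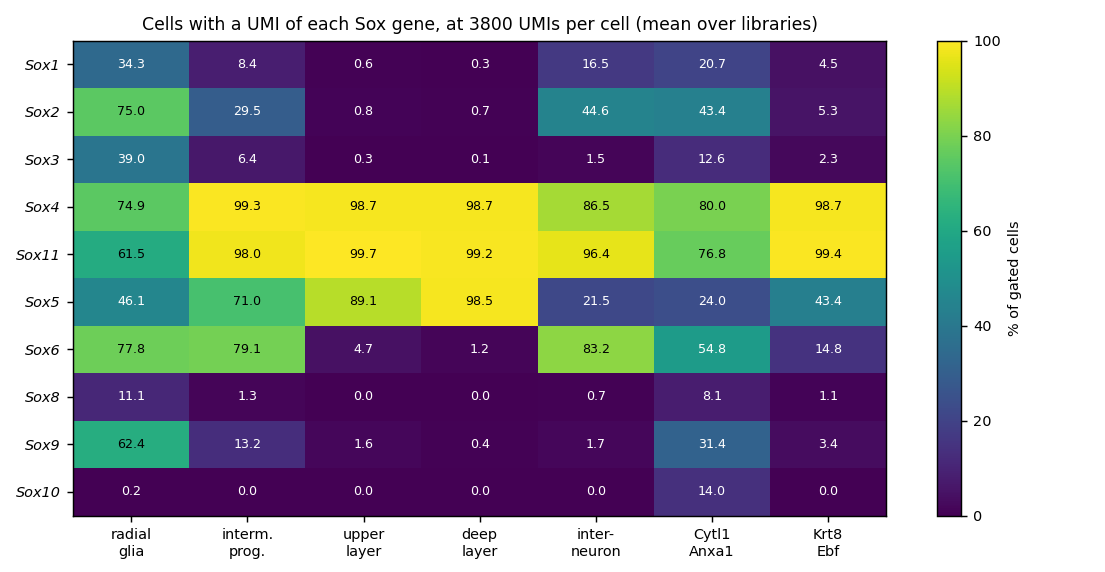
Mean share over libraries of gated cells with at least 1 UMI of each Sox gene after thinning to 3800 UMIs per cell, for 7 gates (4 libraries, or the 2 i4F-Nes libraries for the Cytl1 Anxa1 and Krt8 Ebf gates). Sox4 and Sox11 were detected in over 98% of cells of both excitatory neuron gates, and Sox10 in 14% of Cytl1 Anxa1-gated and at most 0.21% of other gated cells.

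Within the native gates the Sox genes did not pass between i4F-Nes and CTR. These gates left out cells with over 2 genes of the Cytl1 Anxa1 or the Krt8 Ebf list. The comparison thus does not cover i4F-Nes cells that held more of those genes. In radial glia-gated cells 0 of the 9 members tested passed in edgeR, where 0% of all genes passed (635 of 12852 at an unadjusted p under 0.05, and 20 genes and no member by DESeq2). Their log2 fold changes ran from -0.55 to 0.32 with standard errors of 0.14 to 0.20. Sox2, a gene of the induced cassette, was at a log2 fold change of -0.13 ± 0.17 (adjusted p = 0.946), with overlapping libraries. Transcripts of the cassette and of the native gene cannot be told apart in these counts, and a 3′ tag need not lie in the Sox2 part of the cassette, so this level does not check the induction. Sox8 had the lowest value, -0.55 ± 0.20 (unadjusted p = 0.0268, adjusted p = 0.939), with 33.7 and 23.7 in i4F-Nes below 45.6 and 37.4 in CTR. Sox5 had the highest, 0.32 ± 0.14 (unadjusted p = 0.0476, adjusted p = 0.939), with 226 and 217 in i4F-Nes above 179 and 168 in CTR.

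No member passed in the 4 other native gates either. In intermediate progenitor-gated cells 0 of 9 members passed, where 0.00732% of all genes did, that is 1 gene, with 355 at an unadjusted p under 0.05 and 5 genes by DESeq2. In upper-layer neuron-gated cells 0 of 8 passed, where 0% of all genes did (210 unadjusted, 7 by DESeq2), and in deep-layer neuron-gated cells 0 of 6, where 0% did (170 unadjusted, 3 by DESeq2). Log2 fold changes ran from -0.11 to 0.45 in intermediate progenitors, from -0.36 to 0.08 in upper-layer neurons and from -0.65 to 0.36 in deep-layer neurons. In interneuron-gated cells 0 of 8 passed, where 0% of all genes did (362 unadjusted, 1 by DESeq2). The wide values were those of Sox5 (1.39 ± 0.67) and Sox9 (1.10 ± 1.17), where i4F-Nes replicate 2 stood alone at 424 for Sox5 against 161 in i4F-Nes replicate 1 and 145 and 78.9 in CTR. Without i4F-Nes replicate 1 both passed (1.97, adjusted p = 9.56e-12 for Sox5 and 2.17, adjusted p = 0.00305 for Sox9), and without CTR replicate 1 Sox5 passed (1.84, adjusted p = 0.0287). With gates 1 marker stricter Sox5 was at -0.54 and with doublets kept at -0.20. The difference of the i4F-Nes response between radial glia-gated and upper-layer neuron-gated cells was tested directly, and 0 of 9 members passed, where 0% of 15232 genes did (837 unadjusted).

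**Figure D4:**
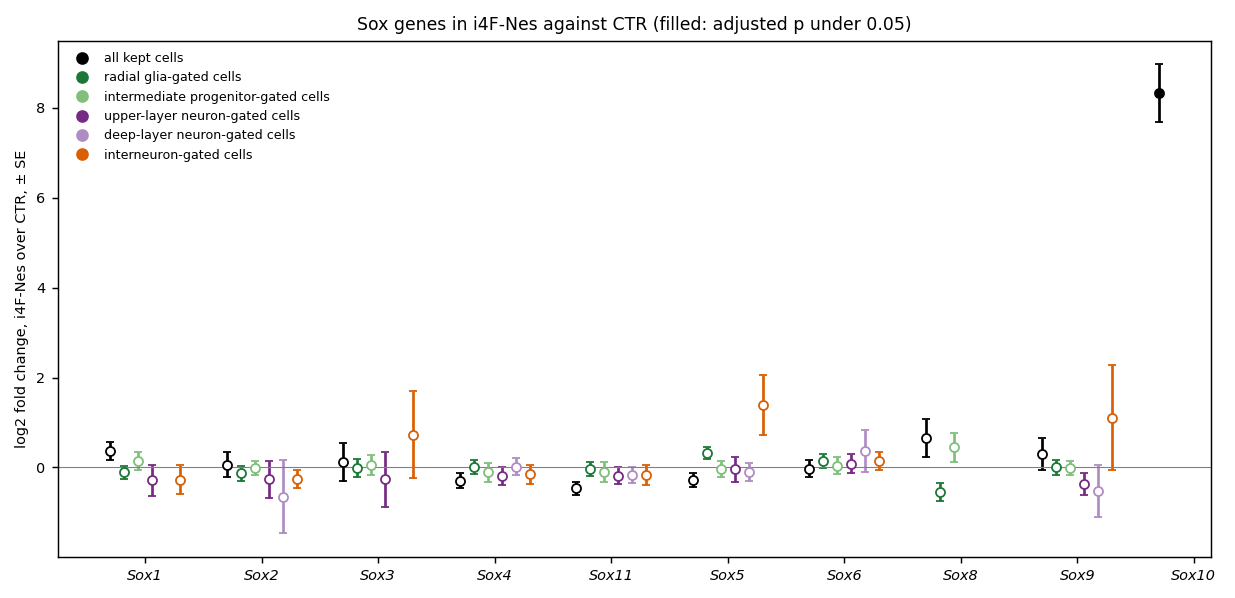
Log2 fold change of i4F-Nes over CTR with its standard error for each Sox gene, over all kept cells and in 5 gates, from 2 libraries per group in edgeR. The filled point, Sox10 over all kept cells at 8.33, is the 1 that passed an adjusted p of 0.05, and genes without a point were not tested in that gate.

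Over all kept cells 1 of the 10 members passed between i4F-Nes and CTR, where 2.18% of all genes passed. It was Sox10, with 5.73 and 10.48 CPM (737 and 821 UMIs) in i4F-Nes against 0.0103 and 0.0367 (1 and 3 UMIs) in CTR. The log2 fold change was 8.33 ± 0.65 (edgeR, adjusted p = 0.0115), and the ratio of the summed counts was 336 with a counting interval of 131 to 1235. Sox10 was higher in both i4F-Nes libraries and passed in all 10 alternative fits that tested it, at 6.70 to 9.39. Without the Cytl1 Anxa1 and Krt8 Ebf gates it was too low to be tested, at 0.105 and 1.25 CPM in i4F-Nes, and 0 of the 9 other members and 0 genes in all passed in edgeR (436 genes at an unadjusted p under 0.05). The other 9 members lay between -0.47 ± 0.15 (Sox11, adjusted p = 0.282) and 0.65 ± 0.42 (Sox8). Sox2 was at 0.06 ± 0.27, and at -0.11 without those gates. Sox9, at 57.8 and 45.6 in i4F-Nes and 54.0 and 25.2 in CTR (0.29 ± 0.36), passed without CTR replicate 1 (0.94, adjusted p = 0.0465). Over all cells a level moves with the shares of the cell types as well as with the RNA per cell, and these cannot be told apart in the summed counts.

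**Figure D5:**
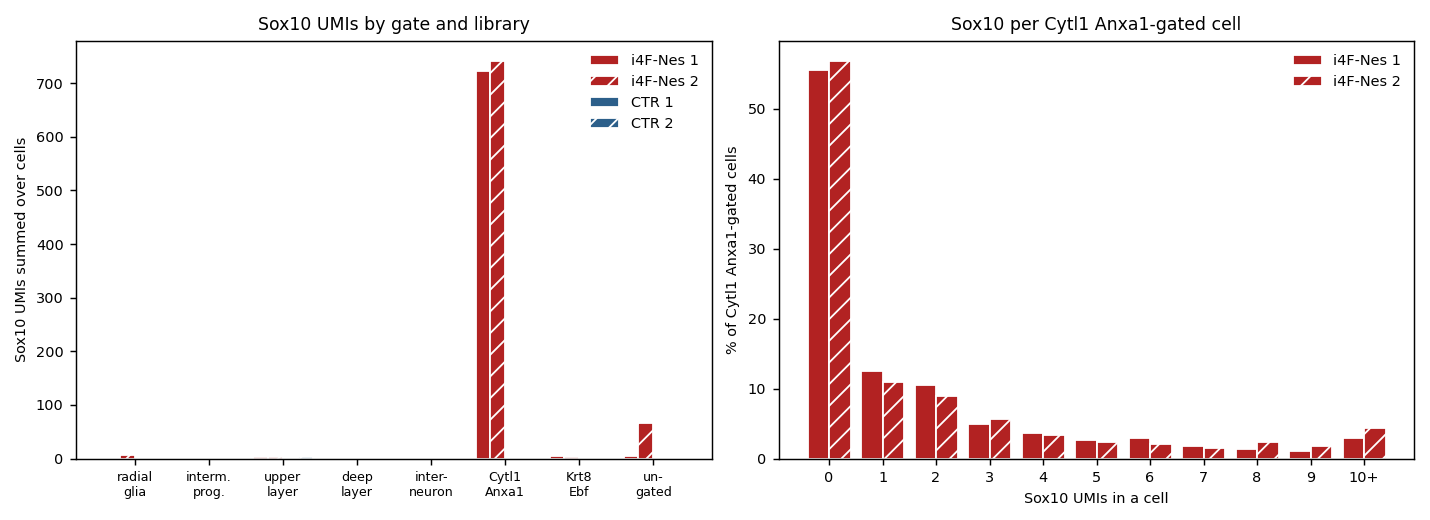
Sox10 UMIs summed over the cells of each gate in each library (left; bars, UMIs), and the share of Cytl1 Anxa1-gated cells by their number of Sox10 UMIs in the 2 i4F-Nes libraries (right). The Cytl1 Anxa1 gate held 722 and 742 of the 737 and 821 Sox10 UMIs of i4F-Nes, and 44.5% and 43.1% of its cells had at least 1.

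The Sox10 UMIs came from the Cytl1 Anxa1-gated cells, which held 98% and 90.4% of those of the 2 i4F-Nes libraries and 5.94% and 6.12% of their cells. A further 66 UMIs of i4F-Nes replicate 2 lay in cells that no gate took. Of the 445 and 392 gated cells, 44.5% and 43.1% had at least 1 Sox10 UMI and 12.8% and 14.3% at least 5, up to 18 and 25 in a cell. At 3800 UMIs per cell the shares with a UMI were 11.7% and 16.3%, against 0.16% and 0.66% of i4F-Nes radial glia-gated cells and 0 of 493 and 0 of 322 CTR radial glia-gated cells, which allows shares of cells with a UMI of up to 0.609% and 0.932% (3 cells). Median depths of all gated cells were 36235 and 26973 UMIs in the Cytl1 Anxa1 gate and 14103 and 12254 in the radial glia gate of i4F-Nes. Cells with a Sox10 UMI had a median of 40406 and 26278 UMIs, and those without one 33176 and 27442. The 6 oligodendrocyte precursor markers summed to 33.5 and 58.5 CPM in this gate, against 56.2 and 44.8 CPM in i4F-Nes radial glia-gated cells, lower in replicate 1 and higher in replicate 2. Of the 6, 4 were found in at least 10% of the deeper Cytl1 Anxa1-gated cells and 1 in at least 10% of radial glia-gated cells. Pdgfra, the receptor that defines those precursors, was at 0.11 to 0.76 CPM in the gated cells with and without a Sox10 UMI. Cspg4 was at 5.06 and 4.24 CPM in cells with a Sox10 UMI and 2.83 and 2.72 in cells without one. Bcan was at 11.87 and 31.68 CPM against 11.43 and 14.04. Cspg4 was thus higher beside Sox10 in both libraries, and Bcan in replicate 2, while in replicate 1 Bcan was nearly equal. Pdgfra was nearly equal in replicate 1 (0.110 against 0.113 CPM) and lower beside Sox10 in replicate 2 (0.40 against 0.76 CPM). It was detected in 0.40% to 1.79% of these cells, so its order rests on few counts. Olig1, Olig2 and Lhfpl3 were lower in replicate 1 and higher in replicate 2. These differences were not tested.

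The other Sox genes of Cytl1 Anxa1-gated cells with and without a Sox10 UMI are given as a description, with no test. Sox9 was at 91.4 and 69.4 CPM in cells with a Sox10 UMI and 142 and 124 in cells without one, and in cells with at least 5 Sox10 UMIs it was at 75.4 and 31.4. Sox5 was at 100.3 and 105.5 in cells with a Sox10 UMI and 71.8 and 64.9 in cells without one. Sox9 was thus lower and Sox5 higher beside Sox10 in both libraries. The drop was not particular to Sox9, since Sox4, Sox11, Sox1 (57.7 and 50.9 against 68.0 and 79.4) and Sox2 (133 and 181 against 154 and 190) were also lower in both. Sox8 was higher in both, at 43.1 and 19.0 against 27.5 and 16.5. Sox3 was lower in replicate 1 and higher in replicate 2. Sox6 was at 311 and 342 in cells with a Sox10 UMI and 284 and 245 in cells without one. Pou5f1, the cassette's POU factor and a partner of Sox2 in pluripotent cells, was at 120 and 28.6 in cells with a Sox10 UMI and 243 and 82.0 in cells without one. The 2 libraries differed in its level but not in that order.

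Within the i4F-Nes libraries the Cytl1 Anxa1-gated cells were set against radial glia-gated cells, and 9 of 10 members passed, where 40.3% of all genes did, with 3 higher (21.4% of all genes) and 6 lower (18.9%). The SoxB1 genes were lower but present, as were the radial glia markers: Sox2 stood at 143 and 186, against 481 and 379 in radial glia-gated cells (log2 fold change -1.33 ± 0.14, adjusted p = 1.28e-05). Sox3 was at 29.1 and 37.1 against 175 and 118 (-2.08 ± 0.32), Sox1 at 62.8 and 67.2 against 113 and 99.4 (-0.66 ± 0.17, adjusted p = 0.00844). Sox2ot was far lower, at 10.3 and 19.5 against 327 and 259 (-4.26 ± 0.42). Sox9 was at 116 and 101 against 335 and 286 (-1.46 ± 0.31), and Sox6 at 298 and 287 against 823 and 691 (-1.31 ± 0.25). Sox5 was lower by -1.33 ± 0.40 (adjusted p = 0.0329), which did not pass with doublets kept (-0.25, adjusted p = 0.423) or with no filter on low counts (-1.25, adjusted p = 0.0897). Sox4 was higher, at 738 and 872 against 508 and 406 (0.90 ± 0.14), as was Sox11, at 487 and 475 against 331 and 271 (0.74 ± 0.13). These Sox11 values lay within its range in microglia- or macrophage-gated cells (122 to 560 CPM), and the part of background was not tested. Sox10 was higher by 6.41 ± 0.41 (adjusted p = 1.46e-07), with 1 and 7 UMIs in the radial glia-gated cells. Sox8, at 35.4 and 17.5 against 33.7 and 23.7, did not pass (-0.08 ± 0.29, adjusted p = 0.849).

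The Krt8 Ebf-gated cells, set against upper-layer neuron-gated cells of the same libraries, had 8 of 10 members passing, where 46.9% of all genes did, with 6 higher (24.1% of all genes) and 2 lower (22.9%). Sox4 did not pass here, at 1779 in each Krt8 Ebf library against 2149 and 1609 in upper-layer neuron-gated cells (-0.20 ± 0.14, adjusted p = 0.272). Sox11 was at 2095 and 2447 against 4100 and 3209 (-0.81 ± 0.13). SoxB1 genes were low yet above the neurons: Sox2 stood at 20.2 and 23.2 against 1.82 and 2.0 (3.36 ± 0.21, adjusted p = 9.61e-08), and Sox1 at 12.6 and 12.8 against 1.32 and 0.91 (3.32 ± 0.27). The 8 intermediate progenitor markers moved with them, at a sum of 1455 and 1218 CPM against 313 and 201 CPM, and their part in it was not tested. The Sox2 values of Krt8 Ebf-gated cells lay within its range in microglia- or macrophage-gated cells (0 to 44.6 CPM), which should lack it. Those of Sox1 lay just above its range there (0 to 12.2 CPM). The part of background was not tested. Sox5 was at 230 and 147 against 1103 and 717 (-2.40 ± 0.41). Sox10 had 4 and 2 UMIs here and did not pass (2.21 ± 0.97, adjusted p = 0.0784), though it passed with doublets kept (2.85, adjusted p = 0.0158) and with no filter on low counts (2.29, adjusted p = 0.0483).

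Of the 9 other Sox genes looked up, 8 were tested over all kept cells and 2 passed, both higher in i4F-Nes, where 2.18% of all genes were higher. Sox13, a SoxD gene, was at 14.4 and 13.1 CPM in i4F-Nes against 2.62 and 1.12 in CTR (2.78 ± 0.43, adjusted p = 0.0499), and at 75.5 and 63.7 in Cytl1 Anxa1-gated cells. Sox14, a SoxB2 gene, had 191 UMIs in i4F-Nes and 0 in CTR (edgeR, adjusted p = 0.022). Its ratio was 54.9 with 3 counts taken for the CTR group, and the exact 95% lower limit of the ratio was 44.25. Sox13 did not pass without the Cytl1 Anxa1 and Krt8 Ebf gates (0.74, adjusted p = 0.999). Sox12, the third SoxC gene, was at 79.0 and 70.6 in i4F-Nes against 94.1 and 94.4 in CTR and did not pass (-0.42 ± 0.11, adjusted p = 0.156). Sox21, a SoxB2 gene of progenitors, was at 20.4 and 16.1 against 18.6 and 9.84 (0.27 ± 0.33). Sox18, known for endothelium, was at 12.1 and 15.8 in Krt8 Ebf-gated cells against 0.199 and 0.273 in upper-layer neuron-gated cells (5.71 ± 0.51). The 8 endothelial markers summed to 3.94 and 4.27 CPM in these Krt8 Ebf-gated cells against 3.67 and 2.55 CPM in the neurons. The 7 mural markers summed to 285.3 and 278.3 CPM against 2.185 and 1.729 CPM, and their part in the Sox18 level was not tested.

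Of 18 listed partners and targets of Sox proteins, 1 of 18 tested passed over all kept cells, where 2.18% of all genes did: Ccnd1, the G1 cyclin, at 58.9 and 52.2 in i4F-Nes against 15.4 and 11.3 in CTR (1.97 ± 0.19, adjusted p = 0.0183). Without the Cytl1 Anxa1 and Krt8 Ebf gates it did not pass (0.62, adjusted p = 0.999). Pou5f1 was at 30.1 and 10.8 against 1.88 and 1.28 (3.59 ± 0.55, adjusted p = 0.0503). In intermediate progenitor-gated against radial glia-gated cells 9 of 18 were higher (32% of all genes) and 4 lower (32.2%), among them Nes, the intermediate filament bound by Sox2 and POU factors in progenitors, at -2.23 ± 0.10 and Pou3f1, a neuronal POU factor, at 3.95 ± 0.36. In upper-layer neuron-gated against radial glia-gated cells 6 were higher (40.6% of all genes) and 8 lower (38.3%), shares near those of all genes, with Notch1, the receptor that holds progenitors back from differentiation, at -7.26 ± 0.16. In Cytl1 Anxa1-gated against radial glia-gated cells 5 were higher (21.4% of all genes) and 6 lower (18.9%), with Pou5f1 at 6.32 ± 0.56, Prox1 at 3.60 ± 0.80 and Pou3f4 at -3.39 ± 0.24.

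Likeness was measured as Pearson's r of log levels over 24 sums of 1 gate in 1 library, which share libraries and depth, across 11533 genes. Sox1 and Sox2 were each other's nearest gene (r = 0.985), and Snx8 came next for Sox2 (0.966). Sox3 was nearest to Hes5 (0.989) and Sox9 to Dbi (0.983), both of them markers used for the radial glia gate, and Sox21 came next for Sox9 (0.981). Sox11 was nearest to Kif21b (0.983), Sox4 to Cotl1 (0.965), Sox5 to Tnik (0.950), Sox6 to Snx8 (0.971), Sox8 to Sall3 (0.971) and Sox10 to Fbp1 (0.978). Among the members Sox4 and Sox11 had r = 0.905, Sox3 and Sox9 0.979, and Sox5 and Sox6 -0.834. The subgroups did not always hold together in this measure, since Sox2 was closer to Sox6 (0.956) than to Sox3 (0.878).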

How the data were processed

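The members and lists were chosen with earlier results of these data known. The authors' deposited matrices hold UMI counts per gene and barcode, made with cellranger 7.0.1 per the file headers, against mm10 per the submitters' processing notes. Cells were captured with 10x 3′ chemistry, per the labels' protocols. The 4 matrices held 35255 barcodes with 458145772 UMIs. Barcodes with at least 1000 UMIs, 500 genes and at most 10% mitochondrial UMIs were kept (28672), and those with the highest Scrublet scores (scanpy 1.11.5), 0.8% per 1000 barcodes, were removed, leaving 26641 cells. Gates asked for UMIs of a minimum number of markers, 7 of 14 for radial glia, without Sox genes. The native gates also left out cells with over 2 markers of the Cytl1 Anxa1 or the Krt8 Ebf list. Radial glia could hold at most 1 excitatory neuron marker, excitatory neurons at most 6 radial glia markers, and neither an Eomes UMI. Counts were summed per library and gate and tested with edgeR 4.0.16 (quasi-likelihood, TMM, filterByExpr, Benjamini-Hochberg at 0.05), gate contrasts with the library as a block. Standard errors of edgeR fold changes were back-calculated, as the absolute log2 fold change over the square root of the quasi-likelihood F statistic. DESeq2 1.42.0, RLE scaling, other cell filters, stricter gates and left-out libraries were alternatives. Named genes were the members, Sox12, Sox21 and genes of 2 lists that passed, by fold size and up to 6 per comparison. Pou5f1 over all cells, Sox2ot and the genes given in Sox10-positive cells were named outside that rule. Intervals are exact at 95% and cover counting error only. The tests were checked on simulated counts.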

Additional observations from a re-analysis of the deposited data

How the results depend on the processing

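Of 436 alternative fits of the 49 calls of Sox genes, 425 passed, and all 436 kept the direction. The count of Sox genes passing moved by over 1.5 times in 2 comparisons. Over all kept cells it was 0 without the Cytl1 Anxa1 and Krt8 Ebf gates, where Sox10 could not be tested, and 1 to 2 when a library was left out. In interneuron-gated cells it was 0 to 2 when a library was left out, the 2 being without i4F-Nes replicate 1. Without a library it was 6 to 7 in deep-layer against upper-layer neurons and as reported elsewhere; the Cytl1 Anxa1 and Krt8 Ebf contrasts then have no residual degrees of freedom and were not run. Values that changed sign belonged to genes that had not passed. Over all kept cells Sox2 ran from -0.27 to 0.53 with a library left out, -0.01 being without i4F-Nes replicate 1, was at -0.11 without the 2 gates, and Sox21 ran from -0.093 to 0.79. In radial glia-gated cells Sox2 ran from -0.29 to 0.018. In interneuron-gated cells Sox5 was at -0.20 with doublets kept and -0.54 with stricter gates, and Sox9 ran from -2.0 to 2.17. The cause was not tested.

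Over all kept cells 405 genes passed, against 1177 by DESeq2, 802 with no filter on low counts, 616 with doublets kept and 537 to 779 with a library left out. In the 5 native gates 0 to 1 gene passed, against up to 103 with no filter on low counts and up to 236 with a library left out. The groups share replicate numbers that no label ties to a litter or day, and deviations of replicate 1 correlated by 0.14 to 0.64 between the groups. With the replicate block 1 of 10 Sox genes passed over all kept cells, beside 1284 genes in all, and 0 passed in each of the 5 gates, beside 75 to 282 genes in all; Sox12 passed over all kept cells (-0.43, adjusted p = 0.0387). With 2 libraries per group, and few Sox8 and Sox10 counts outside the radial glia and Cytl1 Anxa1 gates, small differences may be missed.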
